A study of Mus musculus with 3 samples.

Results

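Apoe, Clu and Cst3 encode abundant secreted proteins of glia. They are 3 of the 32285 features of the deposited matrices, matched by symbol, and were chosen by their raw UMIs (unique molecular identifiers, each standing for 1 counted transcript molecule), which had been seen in barcodes of most cell types of these libraries. Their levels across classes and libraries are therefore a description and carry no test. The 3 genes held 36441 of 17304784 UMIs in the kept nuclei of the control library, 53516 of 20018449 in the doxorubicin library and 45115 of 58422376 in the doxorubicin plus ACY-1083 library. The questions asked here are how the UMIs in the genes' own cells compare with those spread over other nuclei, and how both differ between the libraries.

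The study compared mouse hippocampus without treatment (control), after doxorubicin, an anthracycline chemotherapy drug, and after doxorubicin with ACY-1083, an inhibitor of the tubulin deacetylase HDAC6. Each of the 3 libraries was made from single nuclei of frozen tissue lysed with Triton X-100, pooled from both hippocampi of 4 mice, and the labels give no dose, schedule, strain, sex or age. There was 1 library per group, so no difference between groups has a replicate check, no p-value is given, and the 95% intervals cover counting error only. Where 3 values follow each other, the first belongs to control, the second to doxorubicin alone and the last to the combination.

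In the brain, apolipoprotein E is made mainly by astrocytes, which secrete it on lipoprotein particles that carry cholesterol and other lipids to receptors of the low-density lipoprotein receptor family on neurons and glia. Clusterin, also called apolipoprotein J, is a secreted chaperone that binds unfolded proteins and rides on some of the same particles. Cystatin C, the product of Cst3, is a secreted inhibitor of cysteine proteases such as the cathepsins, and both astrocytes and microglia are known to make it.

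Nuclei hold unspliced RNA, so the intron length of each gene is given beside its exons. In GENCODE vM21 (GRCm38), Cst3 (ENSMUSG00000027447) lies on the minus strand at chr2:148871722-148875692 with 1266 exon bases and 2705 intron bases. Apoe (ENSMUSG00000002985) lies on the minus strand at chr7:19696109-19699188 with 2138 exon and 942 intron bases. Clu (ENSMUSG00000022037) lies on the plus strand at chr14:65968483-65981547 with 3437 exon and 9628 intron bases. No annotated gene overlaps any of them, so their reads are not shared with a neighbour.

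The sequences just upstream of Apoe and Cst3 are shown because the levels of these genes moved together over the classes, as given further on. They come from RefSeq promoters of GRCm38.p6, in the direction of transcription, cut to the bases outside the annotated gene: chr7:19699189-19699438 (minus strand) for Apoe and chr2:148875693-148875762 (minus strand) for Cst3.
Apoe: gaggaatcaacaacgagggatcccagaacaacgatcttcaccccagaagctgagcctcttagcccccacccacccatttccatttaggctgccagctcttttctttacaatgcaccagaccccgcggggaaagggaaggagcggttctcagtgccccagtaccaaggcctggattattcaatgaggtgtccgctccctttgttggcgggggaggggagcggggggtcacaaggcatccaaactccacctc
Cst3: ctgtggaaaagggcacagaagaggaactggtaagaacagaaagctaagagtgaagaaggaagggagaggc
The GC content of the Apoe stretch is 57.2%, where the median over 32851 promoters is 52.4%. For the shorter Cst3 stretch it is 48.6%, where the median is 50%. Both strands were searched for the GC box, spelled GGGCGG. They were also searched for the TATA box, spelled TATAAA, and for the core of an NFI site, spelled TTGGCA. Neither stretch holds any of these letters in a run, so nothing is set in capitals. The Cst3 stretch is the 70 bases farthest from the RefSeq start in a window of 250 bases. The bases nearer that start lie inside the annotated gene and were not searched. The search therefore cannot show whether Cst3 has these motifs close to its start. In windows of the length used for Apoe, 32.7%, 12.4% and 12.3% of all promoters hold these motifs. In windows of the Cst3 length, cut from the same far end, 7.14%, 3.76% and 3.84% do.

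The kept nuclei numbered 10056, 11532 and 11729, with median depths of 1456, 1468.5 and 3816 UMIs. The doxorubicin plus ACY-1083 library stands apart: its file header names another Cell Ranger version, genes with under 5 kb of intron held 6.27% of its UMIs against 14.7% and 14.96% in the other libraries, and most of its nuclei formed clusters of their own, such as 958 of its 966 astrocytes. Its CPM (UMIs per 1000000 UMIs of a class) are therefore not directly comparable with the others, and are given beside UMIs per nucleus. Pairs of libraries shared 29 to 46 barcodes. Classes were named from marker genes that include none of the 3 genes, which were also kept out of the clustering. In the astrocyte, granule neuron, GABAergic neuron, oligodendrocyte, oligodendrocyte precursor, microglial and fibroblast-like classes every marker of the own list was at least doubled in each library. The subicular or cortical excitatory class reached this for 6 of 9, 7 of 10 and 6 of 9 measured markers. These 8 classes had at least 100 nuclei in each library, and 4 smaller ones (ependymal, choroid plexus, endothelial, Cajal-Retzius) are given mainly by level.

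Apoe was highest in astrocytes. The 949, 1156 and 966 astrocyte nuclei held 6071, 9116 and 6586 Apoe UMIs, or 6.40 (95% interval 6.24 to 6.56), 7.89 (7.72 to 8.05) and 6.82 (6.65 to 6.98) per nucleus. Relative to all UMIs of the class this was 7369, 8139 and 3417 CPM. Almost every astrocyte nucleus held Apoe: 23, 12 and 10 nuclei had none, the median nucleus had 5, 7 and 6 UMIs, and the highest had 67, 65 and 73.

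Ependymal cells, the ciliated cells that line the ventricles, came next with 5.23, 7.55 and 5.63 Apoe UMIs per nucleus, though from 31, 40 and 27 nuclei. The astrocyte interval lay clear of theirs in the control and doxorubicin plus ACY-1083 libraries but not in the doxorubicin library. A middle group followed, whose neighbours mostly overlapped in their intervals. Endothelial cells were clear of the next class in the control and doxorubicin libraries. It held choroid plexus at 2.18, 3.04 and 2.77 Apoe UMIs per nucleus, fibroblast-like cells at 2.13, 3.02 and 2.34, oligodendrocyte precursors at 1.93, 2.45 and 2.11 and endothelial cells at 3.12, 3.01 and 1.71. Fibroblast-like nuclei also carried astrocyte markers at 5533, 4825 and 5278 summed CPM (15506, 14464 and 20875 in astrocytes). Endothelial nuclei carried 3857, 2747 and 3311, and the part of these in the Apoe values was not tested.

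Microglia held 1.66, 2.18 and 1.87 Apoe UMIs per nucleus and oligodendrocytes 1.59, 2.19 and 1.63, above the 3 compared neuron classes in every library. Cajal-Retzius cells, a small neuron class, held 1.24, 1.88 and 1.42 from 55, 51 and 72 nuclei. Their intervals (0.960 to 1.57, 1.52 to 2.30 and 1.16 to 1.72) overlapped those of microglia and oligodendrocytes. Neurons, which make little Apoe when unstressed, still held 1.248 to 1.31, 1.60 to 1.66 and 1.20 to 1.40 per nucleus over the granule, GABAergic and subicular or cortical classes. Those 3 classes could not be told apart by their intervals, apart from GABAergic over granule neurons in the doxorubicin plus ACY-1083 library (1.40 against 1.255). Astrocyte nuclei thus held 5.13 (4.91 to 5.35), 4.92 (4.74 to 5.10) and 5.43 (5.21 to 5.67) times the Apoe of granule nuclei.

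Clu was high in astrocytes and ependymal cells. Astrocyte nuclei held 800, 1013 and 1015 Clu UMIs, or 0.843 (0.786 to 0.903), 0.876 (0.823 to 0.932) and 1.05 (0.99 to 1.12) per nucleus. Ependymal nuclei held 0.935, 1.08 and 0.963, and the intervals of the 2 classes overlapped in all 3 libraries. The ependymal counts behind this are small, at 29, 43 and 26 Clu UMIs.

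Outside those classes Clu was lower. Granule neurons held 0.239, 0.263 and 0.246 Clu UMIs per nucleus, and the other compared classes lay between 0.237 and 0.377 over the 3 libraries. Oligodendrocyte nuclei held 1.01, 1.02 and 0.963 times the Clu of granule nuclei and microglia 1.24 (0.945 to 1.59), 1.03 and 1.14 times, with 1 inside each interval. Some other classes were above granule neurons: choroid plexus nuclei held 1.48 (1.02 to 2.09), 1.49 (1.11 to 1.97) and 2.13 (1.62 to 2.76) times their Clu, and endothelial nuclei 2.06 (1.37 to 2.99), 1.44 (1.02 to 1.99) and 1.24 (0.898 to 1.68) times, with 1 inside the last interval. Fibroblast-like nuclei held 1.34 (0.986 to 1.77), 1.44 (1.12 to 1.82) and 1.397 (1.10 to 1.75) times, with 1 inside the control interval. GABAergic neurons were above granule neurons in control, at 1.19 (1.01 to 1.40), and in doxorubicin plus ACY-1083, at 1.33 (1.14 to 1.55), and subicular or cortical neurons in the latter, at 1.35 (1.12 to 1.63). The astrocyte excess over granule neurons was 3.53 (3.17 to 3.93), 3.33 (3.03 to 3.67) and 4.27 (3.86 to 4.72) times.

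Cst3 had 2 classes above the rest. Astrocyte nuclei held 3171, 4460 and 3640 Cst3 UMIs, or 3.34 (3.23 to 3.46), 3.86 (3.75 to 3.97) and 3.77 (3.65 to 3.89) per nucleus. Microglia were second in every library, at 1.98 (1.80 to 2.17), 2.37 (2.18 to 2.56) and 2.32 (2.14 to 2.50) from 450, 611 and 644 UMIs. The microglial interval was clear of the next class, endothelial cells, only in the doxorubicin plus ACY-1083 library.

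Granule neurons held 1.19, 1.51 and 1.36 Cst3 UMIs per nucleus, and the 3 compared neuron classes did not differ beyond their intervals. Oligodendrocytes held 1.23, 1.65 and 1.38, which is 1.03, 1.09 and 1.01 times granule neurons. The astrocyte excess over granule neurons was smaller for Cst3 than for Apoe, at 2.80 (2.66 to 2.94), 2.56 (2.45 to 2.67) and 2.77 (2.64 to 2.90) times. Microglia held 1.66, 1.57 and 1.70 times the granule level of Cst3. The microglial nuclei also carried oligodendrocyte markers, at 2576, 2104 and 1932 summed CPM against 1585, 1723 and 3227 for microglial markers, and the part of these in the Cst3 values was not tested.

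**Figure D1:**
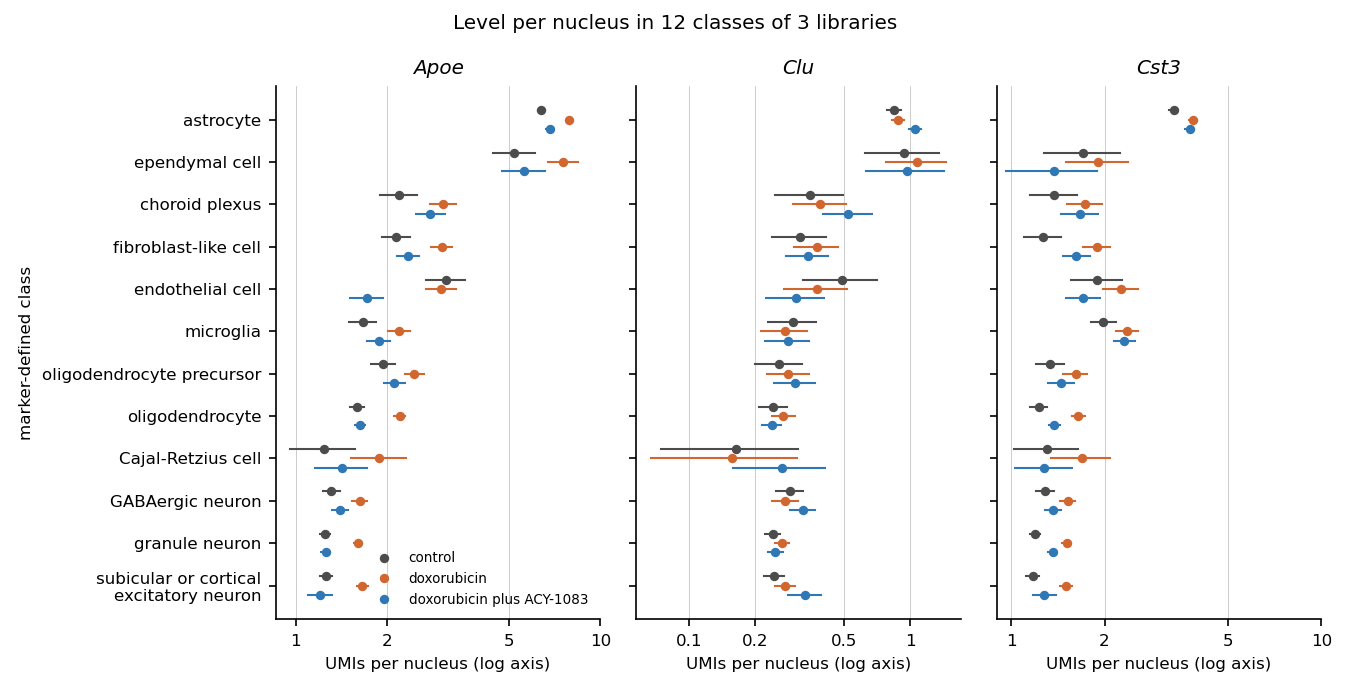
UMIs per nucleus (log axis) of Apoe, Clu and Cst3 in 12 marker-defined classes, with a point for each library and bars for the 95% counting interval. Astrocytes lie at 6.40 to 7.89 for Apoe while the 3 compared neuron classes lie at 1.20 to 1.66, and microglia stand second for Cst3.

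Most UMIs of each gene lay outside astrocytes. Astrocytes were 9.44%, 10.0% and 8.24% of kept nuclei and held 32.4%, 32.0% and 29.7% of all Apoe UMIs, 25.6%, 25.7% and 25.3% of Clu UMIs and 21.7%, 21.1% and 19.2% of Cst3 UMIs. Granule neurons were 25.2%, 24.1% and 22.0% of kept nuclei and held 16.9%, 15.7% and 14.6% of Apoe, 19.3%, 18.6% and 15.8% of Clu and 20.7%, 19.9% and 18.6% of Cst3. For Cst3, astrocytes and granule neurons thus held nearly equal parts, and microglia added 3.08%, 2.89% and 3.40%. The clusters that no marker list named were 27.3%, 29.3% and 24.8% of kept nuclei. They held 19.4%, 21.6% and 17.4% of Apoe, 22.2%, 24.8% and 20.8% of Clu and 23.7%, 26.0% and 21.6% of Cst3. Their part of Cst3 was above that of astrocytes or granule neurons in every library.

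Detection per nucleus shows the same spread. An Apoe UMI was found in 97.6%, 99.0% and 99.0% of astrocyte nuclei, at median depths of 801, 855.5 and 1816.5 UMIs. It was also found in 69.1%, 77.7% and 69.7% of granule nuclei, at median depths of 1340, 1411 and 4452. After every nucleus was thinned to 500 UMIs the Apoe shares were 93.3%, 95.8% and 78.8% of astrocytes against 37.0%, 43.3% and 14.0% of granule neurons. The granule share is used below as a reference, and the part of free RNA in it was not tested. Median depth differs between classes, so shares before thinning are not compared at equal depth.

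Clu was detected in 50.8%, 52.0% and 58.8% of astrocyte nuclei against 21.0%, 23.0% and 21.4% of granule nuclei. After thinning these shares were 34.8%, 33.1% and 21.5% against 8.53%, 9.34% and 2.71%. Oligodendrocytes (20.4%, 23.2% and 20.2%) and microglia (23.8%, 22.5% and 20.9%) were near the granule share of Clu without thinning. Thinned, they were at 14.5%, 16.1% and 7.85% and at 12.3%, 10.5% and 6.83%. The oligodendrocyte nuclei, which are shallower, were close to granule neurons before thinning and above them after it, so no order is read for them. Cst3 was found in 89.9%, 93.2% and 92.2% of astrocytes, 82.8%, 85.7% and 84.5% of microglia and 67.9%, 74.9% and 71.7% of granule neurons. Thinned, these Cst3 shares were 79.3%, 82.1% and 58.6%, then 53.7%, 57.0% and 44.6%, then 35.5%, 41.3% and 15.4%.

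The make-up of the summed UMIs of the 3 genes was compared between classes within each library, and the part of free RNA in it was not tested. In granule neurons Apoe, Clu and Cst3 made up 46.5%, 8.91% and 44.5% of the 6787 control UMIs. In the doxorubicin library they made up 47.5%, 7.79% and 44.7% of 9399, and in the doxorubicin plus ACY-1083 library 43.8%, 8.60% and 47.6% of 7384.

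The other neurons and the clusters that no marker list named mostly lay close to granule neurons in Apoe and Cst3. Over the 3 compared neuron classes and the 4 unnamed clusters of each library with at least 100 nuclei, Apoe ranged from 45.5% to 47.1% in control, 47.0% to 49.3% in doxorubicin and 41.8% to 45.2% in doxorubicin plus ACY-1083. Cst3 ranged from 43.7% to 45.2%, 43.1% to 44.7% and 44.2% to 50.1% over the same 7 groups. In the doxorubicin plus ACY-1083 library Cst3 in GABAergic neurons, at 44.2% (42.1% to 46.3%), lay clear of granule neurons at 47.6% (46.4% to 48.7%). Clu ranged from 8.76% to 9.90%, 7.43% to 8.62% and 8.11% to 11.8%, and in the doxorubicin plus ACY-1083 library subicular or cortical neurons, at 11.8% (10.04% to 13.8%), and GABAergic neurons, at 10.6% (9.37% to 11.96%), lay clear of granule neurons at 8.60% (7.97% to 9.26%). One of these unnamed clusters had mitochondrially encoded genes among its leading genes and no class of its own. It held more UMIs of the 3 genes per nucleus than neurons, 6.20 and 6.03 in the control and doxorubicin libraries against 2.68 and 3.38 in granule neurons, with Apoe at 46.3% and 49.3% of them.

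The make-up of several classes differed from that of granule neurons, with astrocytes, ependymal cells and microglia among them. In astrocytes Apoe made up 60.5% (59.5% to 61.4%), 62.5% (61.7% to 63.3%) and 58.6% (57.7% to 59.5%) of the 3 genes' UMIs, and Cst3 made up 31.6%, 30.6% and 32.4%. Ependymal cells were further along in the same direction, with Apoe at 66.4%, 71.7% and 70.7% and Cst3 at 21.7%, 18.1% and 17.2%. Microglia lay on the other side, with Cst3 at 50.3% (47.0% to 53.7%), 49.1% (46.3% to 51.9%) and 51.9% (49.0% to 54.7%). Their Clu was at 7.49%, 5.63% and 6.28%, and in control its interval overlapped that of granule neurons. In the doxorubicin plus ACY-1083 library the granule Cst3 interval of 46.4% to 48.7% nearly meets the microglial one. Oligodendrocytes (Apoe 52.0%, 53.4% and 50.3%) and their precursors (54.8%, 56.4% and 54.6%) lay between neurons and astrocytes. So did choroid plexus (55.7%, 59.0% and 55.9%) and fibroblast-like cells (57.4%, 57.1% and 54.4%). Endothelial cells were at 56.6%, 53.3% and 46.0%, and the last interval (41.8% to 50.3%) overlapped that of granule neurons.

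**Figure D2:**
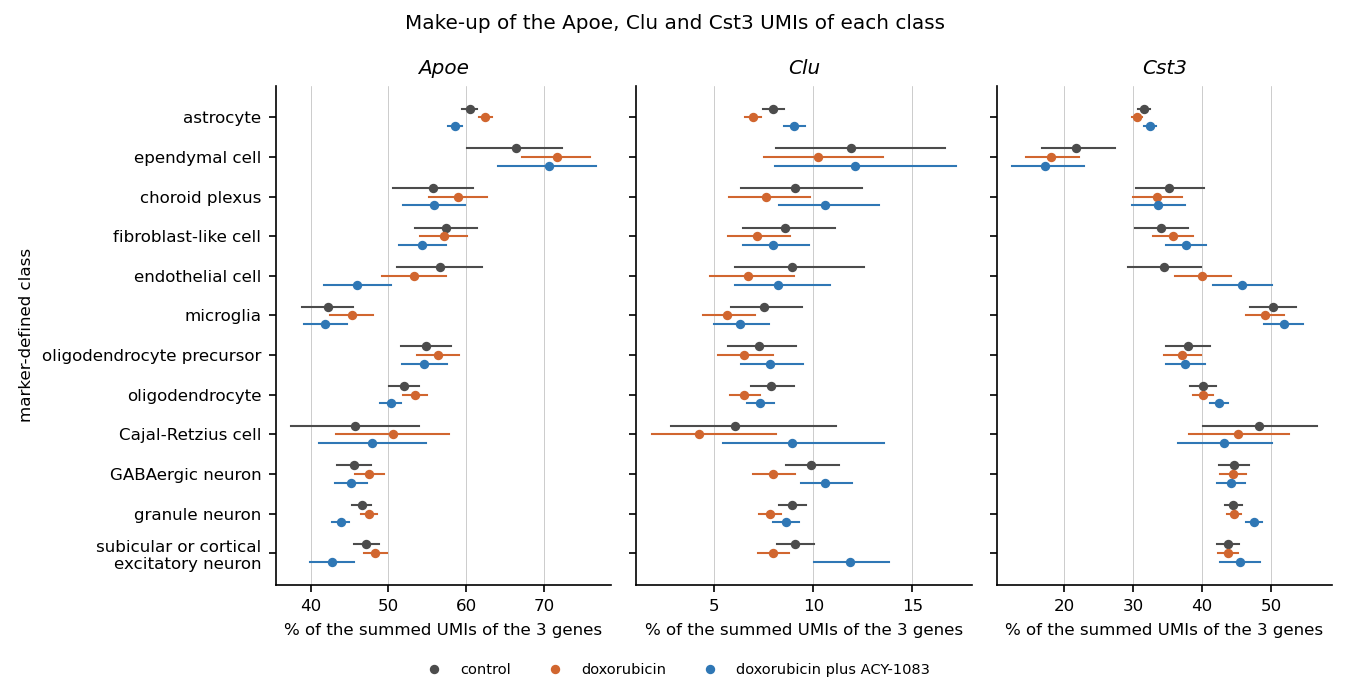
Percentage of the summed Apoe, Clu and Cst3 UMIs that each gene makes up, by class and library, with 95% exact binomial intervals. Astrocytes (58.6% to 62.5% Apoe) and ependymal cells (66.4% to 71.7%) lie to the right of the neurons for Apoe, and microglia have the highest Cst3 among the 8 compared classes.

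The genes also scaled differently with the depth of a nucleus. Nuclei of each class and library were divided by total UMIs into 3 equal groups, and the deepest was compared with the shallowest. In granule neurons median depth differed 1.99-fold, 1.98-fold and 2.48-fold, while Apoe per nucleus differed 1.14-fold, 1.12-fold and 1.28-fold, Clu 1.11-fold, 1.23-fold and 1.48-fold and Cst3 1.09-fold, 1.28-fold and 1.26-fold. Snap25, a synaptic gene that neurons transcribe, followed depth in the same nuclei at 2.25-fold, 2.18-fold and 2.68-fold. Slc1a2, a gene higher in astrocytes, also differed there, 1.94-fold, 1.68-fold and 2.11-fold. In astrocytes Snap25 differed 1.56-fold, 1.84-fold and 1.47-fold between the depth groups. Following depth was thus not limited to genes of the own class, and its cause was not tested.

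In astrocytes the 3 genes followed depth. Over a 1.75-fold, 1.81-fold and 2.16-fold difference in median depth, Apoe went from 4.42 to 9.10, from 5.65 to 10.9 and from 4.91 to 9.14 UMIs per nucleus. The astrocyte difference was 1.97-fold, 2.23-fold and 2.36-fold for Clu and 1.88-fold, 1.75-fold and 1.81-fold for Cst3. Ttr, the transthyretin gene of choroid plexus epithelium, differed 1.13-fold, 1.31-fold and 1.29-fold between the same astrocyte groups.

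In microglia median depth spanned 5.87-fold, 5.98-fold and 5.42-fold, and Cst3 per nucleus differed 1.06-fold, 1.13-fold and 1.40-fold. The deepest microglial nuclei also carried neuronal transcripts: Snap25 went from 0.171 to 1.80, from 0.267 to 2.10 and from 0.258 to 2.78 UMIs per nucleus. The shallowest microglial nuclei, with little Snap25, held 1.86 (1.56 to 2.19), 2.33 (2.01 to 2.67) and 1.88 (1.61 to 2.18) Cst3 UMIs. All granule nuclei together held 1.19, 1.51 and 1.36 Cst3 UMIs per nucleus. The part of RNA from other cells in the microglial values was not tested.

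**Figure D3:**
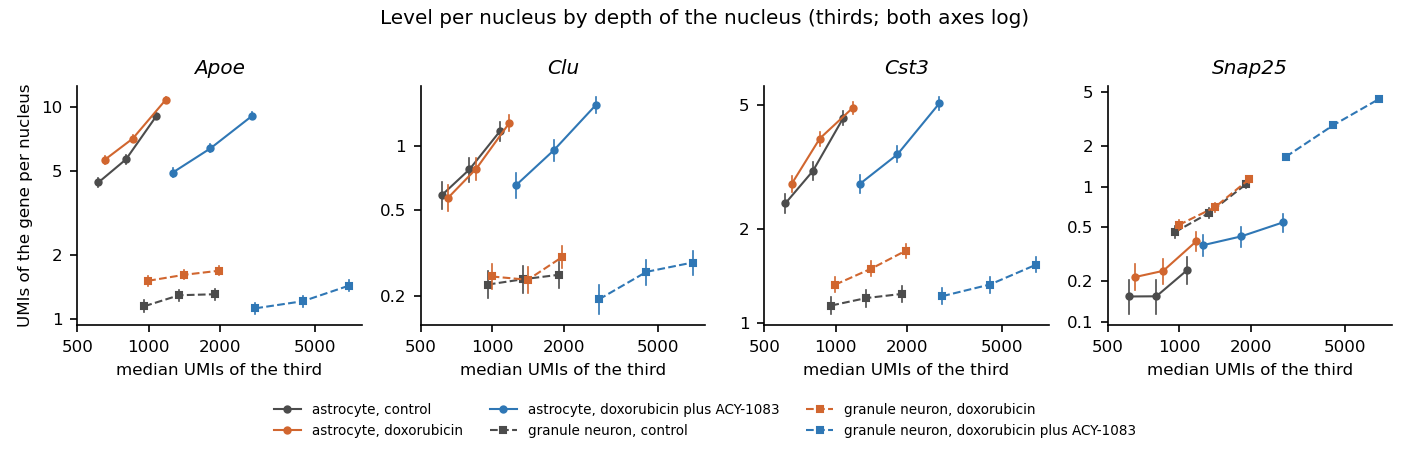
UMIs per nucleus of Apoe, Clu, Cst3 and the neuronal gene Snap25 against median depth in 3 equal depth groups of astrocytes (solid lines) and granule neurons (dashed lines), both axes log, with 95% counting intervals. Lines of the 3 genes climb in astrocytes (1.75-fold to 2.36-fold) and less in granule neurons (1.09-fold to 1.48-fold), where Snap25 climbs 2.18-fold to 2.68-fold.

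The spread of the 3 genes was set beside abundant genes of 1 class, taking the granule level as a percentage of the highest class. In CPM, granule neurons held 11.7%, 13.1% and 7.48% of the astrocyte level of Apoe, 17.1%, 19.3% and 9.53% for Clu and 21.5%, 25.1% and 14.7% for Cst3. Among other astrocyte genes, the glutamate transporter genes Slc1a2 and Slc1a3 were lower, at 3.49%, 4.00% and 2.53% and at 4.3997%, 5.23% and 3.04%. The glycolytic gene Aldoc was close to Apoe, at 13.0%, 14.3% and 8.21%.

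Genes of other classes varied as much. Ttr of choroid plexus was at 8.88%, 15.3% and 8.68%, while Enpp2 of the same class was at 1.65%, 2.47% and 0.643%. The myelin gene Mbp was low, at 1.88%, 2.53% and 2.87%. Ptgds, highest in fibroblast-like cells, was at 3.16%, 4.06% and 2.51%. The microglial gene C1qa was at 11.8%, 8.04% and 3.88%. Cx3cr1 was at 2.50% and 2.62% in control and doxorubicin, and in the doxorubicin plus ACY-1083 library its highest class was choroid plexus, with granule neurons at 4.396% of it. Snap25, Syt1, Nrgn and Camk2a, which neurons transcribe, were at 61.1% to 100%.

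Against all genes that were highest in astrocytes with enough UMIs there (575, 659 and 862 genes), the granule percentages of the 3 genes were below the median of 39.9%, 43.3% and 26.9%. A lower percentage than that of Apoe was held by 139, 151 and 235 of these genes, than that of Clu by 164, 181 and 266 and than that of Cst3 by 182, 213 and 312.

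Likeness of pattern was measured as the Pearson correlation of log2(CPM + 20) over the 8 compared classes, taking for each gene the lowest r of the 3 libraries among 6285 genes. It is a description over 8 points that share library and depth. Nearest to Apoe were Cst3 (lowest r 0.980), Clu (0.978), the tetraspanin gene Cd81 (0.977), the metallothionein gene Mt1 (0.961) and Slc1a3 (0.951). Nearest to Clu were Apoe (0.978), Mt1 (0.978), the milk fat globule protein gene Mfge8 (0.971), the acyl-CoA synthetase gene Acsl3 (0.961) and Ndrg2 (0.954). Nearest to Cst3 were Apoe (0.980), Cd81 (0.969), the adaptor gene Appl2 (0.949), the histone gene Hist1h2bc (0.948) and Mt1 (0.945). Between Clu and Cst3 the lowest r was 0.940.

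Between doxorubicin and control, the CPM ratios of Apoe and Cst3 were smallest in astrocytes among the 8 compared classes, and those of Clu lay around 1. The next class, oligodendrocyte precursors, overlapped astrocytes in its intervals, at 1.20 (1.07 to 1.35) for Apoe and 1.15 (0.998 to 1.32) for Cst3. Among the small classes, endothelial Apoe at 1.06 (0.883 to 1.28) and ependymal Cst3 at 0.970 (0.674 to 1.40) were below the astrocyte value, within their wide intervals. In astrocytes the doxorubicin over control CPM ratio was 1.10 (1.07 to 1.14) for Apoe, 0.931 (0.848 to 1.02) for Clu and 1.03 (0.988 to 1.08) for Cst3. Scaled per nucleus, which raises every astrocyte ratio by 0.16 on the log2 scale, the values were 1.23 (1.19 to 1.27), 1.04 (0.947 to 1.14) and 1.15 (1.10 to 1.21), so the side of 1 on which Clu lay depended on the scaling. On that scale the astrocyte ratio of Apoe was close to the smallest of the other classes, 1.24 in GABAergic neurons. With doublets kept, or with nuclei thinned to 500 UMIs, astrocytes no longer had the smallest Apoe ratio (1.16 against 1.13 in the lowest other class, and 1.15 against 1.08).

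In granule neurons Apoe was at 865 CPM in control and 1063 in doxorubicin, a ratio of 1.23 (1.17 to 1.29). Cst3 was at 828 and 1000.3 CPM, a ratio of 1.21 (1.15 to 1.27), and Clu at 166 and 174 CPM, a ratio of 1.05 (0.943 to 1.17). Outside astrocytes the ratios of the 7 other compared classes ran from 1.20 to 1.43 for Apoe, with oligodendrocytes highest at 1.43 (1.34 to 1.53). They ran from 1.15 to 1.44 for Cst3, with fibroblast-like cells highest at 1.44 (1.21 to 1.71), and from 0.950 to 1.15 for Clu, where all 8 intervals held 1.

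A ratio was called when it was above 0.32 or below -0.32 on the log2 scale, for a gene with at least 100 UMIs over both libraries. Of 24 pairs of gene and class, 8 were called higher and 0 lower, of which 5 were Apoe, 3 Cst3 and 0 Clu. In GABAergic neurons 1 of the 3 genes was called higher (Apoe, 1.29), where 8.94% of all measured genes were. Subicular or cortical neurons had Apoe (1.30) and Cst3 (1.26) called, against 5.78% of genes. Oligodendrocytes had both called (Apoe 1.43, Cst3 1.40) against 13.1%, fibroblast-like cells both (1.36 and 1.44) against 20.3%, and microglia Apoe (1.36) against 8.46%. None of the 3 was called in granule neurons, where 5.21% of genes were higher and 9.75% lower. None was called in astrocytes, where 10.5% were higher and 12.4% lower, or in oligodendrocyte precursors, where 11.2% were higher. The genes were chosen on UMIs of these same libraries, so nothing is read from the counts.

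Ttr moved with this pattern and more widely. In the 11 named classes other than choroid plexus that all libraries share, Ttr was at 1.87 to 2.71 UMIs per nucleus in control, 4.51 to 5.12 in doxorubicin and 3.52 to 4.43 in doxorubicin plus ACY-1083, against 20.9, 26.3 and 31.6 in choroid plexus nuclei. Its doxorubicin over control ratio was 1.23 in choroid plexus and above that in every other class. The part of free RNA in the Apoe and Cst3 ratios was not tested.

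**Figure D4:**
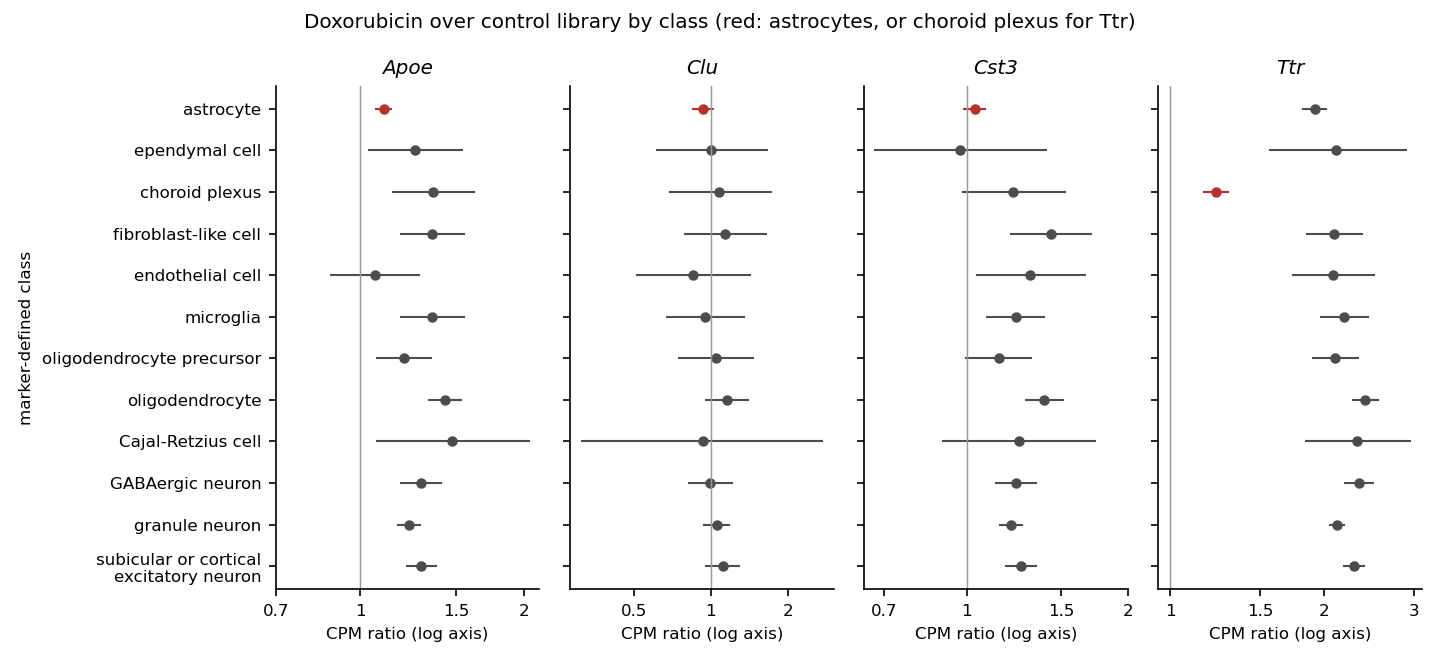
Doxorubicin over control CPM ratio (log axis, 95% counting intervals) of Apoe, Clu, Cst3 and the choroid plexus gene Ttr by class, with the own class in red. For Apoe the astrocyte ratio of 1.10 lies left of the other compared classes (1.20 to 1.43), though its interval overlaps that of oligodendrocyte precursors. For Ttr the choroid plexus ratio of 1.23 lies left of all others.

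Partner genes were described from lists, doxorubicin over control, as counts of genes called by the same limits, beside medians of all measured genes of -0.03 (astrocytes), -0.05 (microglia) and -0.06 (granule neurons) on the log2 scale. Of all measured genes 10.5% were called higher and 12.4% lower in astrocytes, 8.46% and 14.6% in microglia and 5.21% and 9.75% in granule neurons. Of 8 receptors and uptake genes of Apoe and Clu, 4 were measured in astrocytes and 0 were called (median -0.01). The endocytic receptor gene Lrp1 was at 262 and 296 CPM there, and the sorting receptor gene Sorl1 at 124 and 109. In granule neurons 5 were measured and 1 was lower (median -0.25): Lrp1, at 125 and 98.8 CPM, a ratio of 0.790 (0.690 to 0.904), while Sorl1 was at 118 and 106 CPM. In microglia only Lrp1 was measured, at 227 and 252 CPM, and Trem2, the microglial lipid receptor, had 36 and 29 UMIs.

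Of 11 genes of lipid loading and lipoprotein partners, 3 were measured in astrocytes and 1 was higher (median -0.14), 1 was measured and higher in microglia, and 3 were measured and 1 higher in granule neurons (median 0.07). The called gene was Apod, apolipoprotein D, in all 3 classes. Apod ratios were 1.30 (1.04 to 1.64) in astrocytes, 1.29 (0.869 to 1.94) in microglia and 1.53 (1.32 to 1.77) in granule neurons. The cholesterol transporter gene Abca1 was at 159 and 145 CPM in astrocytes, and Abcg1 at 34.2 and 29.8 CPM in granule neurons.

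Of 8 cysteine protease genes of the kind cystatins hold, 2 were measured in astrocytes, where cathepsin B (Ctsb) was higher at 137 and 179 CPM, a ratio of 1.31 (1.03 to 1.66), and cathepsin L (Ctsl) was at 141 and 153. In granule neurons, where 5.21% of all genes were higher, 4 were measured and 2 were higher: Ctsl at 1.35 (1.12 to 1.64) and legumain (Lgmn) at 1.33 (0.895 to 2.01), while Ctsb was at 86.0 and 77.9 CPM. None of the 8 reached 100 UMIs in microglia. Of 5 other cystatin genes, Cstb, an intracellular cystatin, was the only one measured, in granule neurons, with 34 and 67 UMIs and a ratio of 1.71 (1.12 to 2.67).

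Other secreted glial genes were mostly level. Of 17, 14 were measured in astrocytes, with 0 higher and 1 lower (median -0.06). The lower gene was Chgb, a granin, at 0.773 (0.639 to 0.935), and the part of neuronal transcripts in its astrocyte counts was not tested. The extracellular matrix gene Sparcl1 was at 1265 and 1178 CPM there and pleiotrophin (Ptn) at 1058 and 985. In microglia 9 were measured and 0 called (median 0.13), with Ptgds at 651 and 713 CPM and Itm2b at 339 and 337. In granule neurons 14 were measured and 2 were lower (median 0.05): Igfbp5 at 0.7998 (0.685 to 0.933) and Timp3 at 0.798 (0.686 to 0.928). Ptgds was at 413 and 504 CPM in granule neurons and Itm2b at 332 and 349.

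Of 9 reactive astrocyte genes, Gfap, the intermediate filament gene, was the only one measured in astrocytes, at 319 and 264 CPM, a ratio of 0.828 (0.699 to 0.981), and Vim had 34 and 61 UMIs. Of 11 activated microglia genes, only Ctsd was measured in microglia, at 148 and 129 CPM, a ratio of 0.872 (0.619 to 1.23). In granule neurons, against 5.21% of all genes, 3 genes of that list were measured and 2 were higher, the tetraspanin gene Cd9 at 1.29 (1.02 to 1.62) and Csf1 at 1.42 (1.02 to 2.01).

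The doxorubicin plus ACY-1083 library is set beside the doxorubicin library, which both comparisons share. The direction of the ratio depended on the scaling. In CPM every one of the 24 ratios was below 1, from 0.229 to 0.662. On that scale 30.6% (fibroblast-like cells) to 49.5% (subicular or cortical neurons) of all measured genes were called lower per class. From 32.0% (subicular or cortical neurons) to 53.5% (fibroblast-like cells) were called higher, so nothing is read from the count. In astrocytes Apoe was at 0.420 (0.407 to 0.433), Clu at 0.582 (0.533 to 0.636) and Cst3 at 0.474 (0.454 to 0.496). In the same astrocytes per nucleus, Apoe was at 0.865 (0.837 to 0.893), Clu at 1.20 (1.10 to 1.31) and Cst3 at 0.977 (0.935 to 1.02). Scaled by the UMIs of genes with under 5 kb of intron, they were at 0.796 (0.771 to 0.822), 1.10 (1.01 to 1.21) and 0.899 (0.860 to 0.940).

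Apoe was thus lower, and Clu higher, in astrocytes on both of the latter scales, while Clu was lower in CPM. In granule neurons Apoe was at 0.782 (0.747 to 0.819) per nucleus and 0.586 (0.560 to 0.613) on the short-intron scale, Cst3 at 0.903 (0.863 to 0.944) and 0.676 (0.647 to 0.708), and Clu at 0.936 (0.841 to 1.04) and 0.702 (0.630 to 0.781). In microglia Cst3 was at 0.978 (0.874 to 1.09) per nucleus and 1.251 (1.12 to 1.40) on the short-intron scale, and Apoe at 0.857 (0.759 to 0.967) and 1.10 (0.971 to 1.24).

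In levels per nucleus, Apoe in granule neurons was 1.248 in control, 1.60 in doxorubicin and 1.255 in doxorubicin plus ACY-1083, and in astrocytes 6.40, 7.89 and 6.82. These values rest on 1 library each, and the differences in software version and depth cannot be told apart from the treatment.

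**Figure D5:**
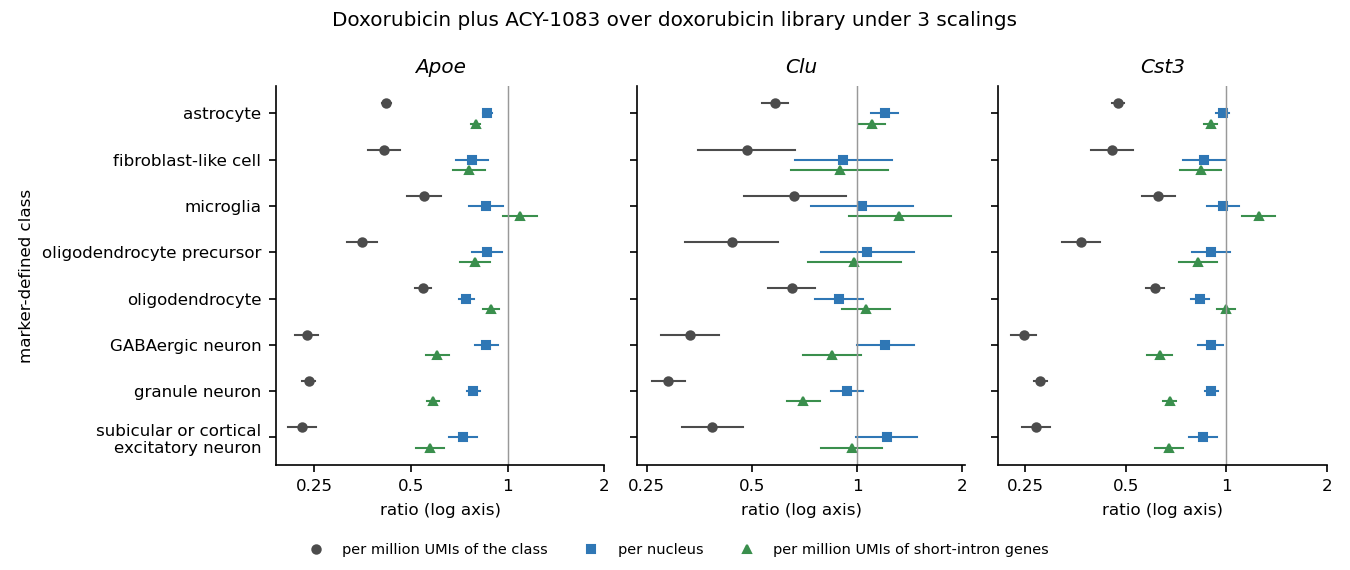
Ratio of the doxorubicin plus ACY-1083 library to the doxorubicin library (log axis, 95% counting intervals) for the 3 genes in 8 classes under 3 scalings. Ratios of CPM all lie below 1, at 0.229 to 0.662, while ratios per nucleus and per short-intron UMIs lie nearer to 1. Some of these lie above 1, for Clu in astrocytes on both scales and in other classes on 1 or both.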

How the data were processed

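Raw UMI counts for each gene in each barcode were deposited by the authors, who made them with Cell Ranger from 10x 3' v3 libraries of nuclei. Per the file headers the version was 4.0.0 for the control and doxorubicin libraries and 5.0.0 for the doxorubicin plus ACY-1083 library, while the submitters' processing notes name 6.0.0 and mm10. No source used here says whether reads in introns were included. The matrices held 10909, 12221 and 12192 barcodes with 19175447, 21458785 and 62151258 UMIs, and no barcode had under 500 UMIs, per the deposited counts.

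Barcodes with at least 300 genes and under 5% mitochondrial UMIs were kept. Scrublet (through scanpy 1.11.5) was run with an expected doublet rate of 8%, chosen after its default rate marked almost no barcode, and removed 851, 688 and 461 barcodes (7.80%, 5.63% and 3.78%). The libraries were clustered together (Leiden resolution 1, leidenalg 0.10.2, 30 principal components of 2000 variable genes that left out Apoe, Clu and Cst3). A cluster was named when its markers were on average doubled against the other clusters, with at least 3 detected and at least 2 doubled. No other list could have more markers among the 10 leading genes. The name was withheld where the next list came within 0.5 on the log2 scale with at least as many markers among those 10. It was also withheld from clusters far shallower than their library with no own marker among the 10. Most nuclei of the doxorubicin plus ACY-1083 library lie in clusters of their own, so a class there rests on other clusters than in the other libraries.

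Counts were summed per class and library. UMIs per nucleus have exact Poisson intervals, shares exact Clopper-Pearson intervals, and ratios of 2 libraries exact intervals conditional on their sum, all at 95% and for counting error only. The call rule and the ratio intervals were tested on simulated Poisson counts of astrocyte and granule neuron sums, doxorubicin against control. Such counts meet the assumption of the intervals, so variation beyond counting was not covered. The other steps were not tested in this way. Genes named beside the 3 were the 5 most alike in pattern among genes with at least 300 UMIs per library, the spread comparators (3 of the 16 are not reported here), and in each pathway list the 2 with the most UMIs in the class plus those called. The genes, lists and limits were chosen with earlier results of these data known. Alternatives covered doublets, clustering, the gene minimum, thinning and 4 scalings, including edgeR 4.0.16 TMM factors on class sums (R 4.3.3). Gene models were GENCODE vM21, which matched 32235 of the 32285 features.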

Additional observations from a re-analysis of the deposited data

How the results depend on the processing

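Each of 102 values was recomputed under the alternatives that apply to it, giving 604 values, of which 426 moved by less than the counting interval, 165 moved by more and 13 went from a ratio past the limit for a call to the other side of 1. For doxorubicin over control in astrocytes, on the log2 scale, Apoe (0.14) became 0.22 with doublets kept, 0.012 with at least 600 genes per nucleus, 0.30 per nucleus and 0.21 with nuclei thinned to 500 UMIs. Cst3 (0.05) became 0.13, -0.064, 0.21 and 0.12 under the same settings, and Clu (-0.10) became 0.056 per nucleus, so both also changed sign under 1 setting, from values near 0. The share of control UMIs held by astrocytes became 33.9% for Apoe (32.4%) and 23.2% for Cst3 (21.7%) with doublets kept, and 23.5%, 17.2% (25.6%) and 13.9% for Apoe, Clu and Cst3 with at least 600 genes, which left 333 of 949 control astrocytes. The pairs of gene and class called higher numbered 6 to 11 (8 as reported) and those called lower 0 under every alternative run. The order of the Apoe ratios, with astrocytes below the other compared classes, did not hold with doublets kept (astrocytes 1.16, lowest other class 1.13) or with thinning (1.15 and 1.08).

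Those 13 were in doxorubicin plus ACY-1083 over doxorubicin, each below 0 in CPM. Per nucleus Clu became 0.27 in GABAergic neurons, 0.26 in astrocytes, 0.048 in microglia, 0.10 in oligodendrocyte precursors and 0.29 in subicular or cortical neurons. With short-intron genes as the total, Clu became 0.14 in astrocytes, 0.40 in microglia and 0.082 in oligodendrocytes, and in microglia Apoe became 0.13 and Cst3 0.32. With at least 600 genes, oligodendrocytes gave 0.33 for Apoe, 0.34 for Clu and 0.52 for Cst3, from 195 nuclei in doxorubicin and 1502 in the combination. The cause of these shifts was not tested. No replicate could be left out and no paired analysis was possible because each group had 1 library. The ependymal, endothelial, choroid plexus and Cajal-Retzius values each rest on under 150 nuclei per library.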

Other observations

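Some nuclei of the doxorubicin plus ACY-1083 library fell into classes that were not named in the other libraries. Its 851 CA2/CA3 pyramidal nuclei had a median of 9359 UMIs, the deepest of the named classes there, yet held 1.26 Apoe UMIs per nucleus, near the 1.255 of granule neurons at a median of 4452. They held 0.27 Clu and 1.32 Cst3 UMIs per nucleus. Its 327 thalamic or habenular nuclei held 1.37, 0.29 and 1.58.

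A cluster found in that library only, with 569 nuclei and a median of 867 UMIs, was led by Gm42418, Ttr and Tmsb4x and matched no marker list. Apoe stood there at 1.30 UMIs per nucleus, and Cst3 made up 50.1% of the UMIs of the 3 genes, the highest value among the unnamed clusters. The cluster led by mitochondrially encoded genes held 2.87 and 2.97 Apoe UMIs per nucleus in the control and doxorubicin libraries, from 140 and 344 nuclei, and 6.34 and 13.8 Ttr UMIs. The unnamed cluster led by 4921539H07Rik, Tafa1 and Col11a1 held 1.24 and 1.68 Apoe UMIs per nucleus in 1768 and 2017 nuclei of those libraries, close to the granule values of 1.248 and 1.60.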
